A study of Homo sapiens with 6 samples.

Results

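The 36 genes described here carry out or regulate glycolysis or respond to low oxygen. They were chosen by name: 4 transporters of glucose and lactate, 16 glycolytic enzymes, 3 regulators of glycolytic flux, 4 hypoxia-inducible factors and prolyl hydroxylases, and 9 other hypoxia targets. All 36 are rows of the deposited table of 33117 genes, and 34 of them reached the level needed for testing, among 13941 genes tested in all. The remaining pair, CA9 and EGLN3, stayed below a mean of 0.5 FPKM and are given by their values only.

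The samples are total RNA of WPMY-1, an immortalised line of stromal cells from the normal human prostate, grown in DMEM with 5% fetal bovine serum. The shCtrl group (3 libraries) carried the empty lentiviral vector pLKO1, and the shCAVIN1 group (3 libraries) carried the same vector with 1 short hairpin RNA against CAVIN1, which coats caveolae, small pits of the plasma membrane. Per the labels, lentivirus was packaged in HEK293T cells and puromycin selection of the infected cells gave clones with stable knockdown; how many clones a group holds is not stated, and no other hairpin was analysed here. The labels describe the 3 libraries of a group as independent biological replicates but do not say whether they came from separate infections, so a p-value here reflects how far these libraries scatter, which may be technical.

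Glycolysis splits glucose into pyruvate in the cytosol. Hexokinase traps glucose in the cell, phosphofructokinase commits it to the pathway, and later steps make ATP, after which pyruvate is either reduced to lactate and exported or enters the mitochondria. When oxygen is low, the prolyl hydroxylases (EGLN genes) no longer mark the alpha subunits HIF1A and EPAS1 for destruction, and these switch on many genes of glycolysis together with genes for pH control, blood vessel growth, mitophagy and collagen synthesis. The factors bind DNA at short sequences with the core ACGTG or GCGTG, the hypoxia response element. HIF activity is set largely at the protein level, which RNA sequencing does not measure.

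To show where such core letters lie, the 250 bases before the RefSeq transcription start (GRCh38.p14) were searched on both strands for ACGTG and GCGTG, counting overlapping matches separately, so that the palindrome CACGTG gives 2. Of the 36 genes, 32 matched an entry of the RefSeq promoter table, and 22 of these 32 (68.8%) held at least 1 match. Among all promoters of the same length, 15172 of 35116 did (43.2%). Those promoters were not restricted to tested or protein-coding genes. The shares thus come from unlike sets, and their difference was not tested. A match describes the letters only and is not evidence of binding. The stretches below are from genes with each kind of outcome: PGK1, HIF1A, ADM and P4HA1 were lower in shCAVIN1, ENO1 was higher, and LDHA and BNIP3 did not pass the test. Each reads 5′ to 3′ on the strand of its gene, with the matched letters in capitals (CACGT and CACGC are the same cores on the opposite strand). Positions count from the RefSeq start; in GENCODE 29 the stretches of ENO1, LDHA, ADM and P4HA1 lie wholly within annotated exons.
PGK1 (chrX:78104025-78104081, plus strand, -223 to -167 from the start): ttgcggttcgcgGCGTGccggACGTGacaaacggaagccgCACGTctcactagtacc
ENO1 (chr1:8878836-8878864, minus strand, -178 to -150): cacccccctttcCACGCtactgcagccgt
LDHA (chr11:18394464-18394492, plus strand, -99 to -71): cagcccgactcaCACGTGggttcccgcac
HIF1A (chr14:61695297-61695325, plus strand, -216 to -188): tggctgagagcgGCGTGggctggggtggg
BNIP3 (chr10:131982050-131982078, minus strand, -155 to -127): acccgccccgcgCACGCgccgCACGTGcc
ADM (chr11:10304960-10304988, plus strand, -113 to -85): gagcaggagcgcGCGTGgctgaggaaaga
P4HA1 (chr10:73096936-73096964, minus strand, -98 to -70): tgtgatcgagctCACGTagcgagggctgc
The letters were present in 3 of 7 matched genes that were higher in shCAVIN1, 10 of 13 that were lower, 8 of 10 that did not pass the test and 1 of the 2 that were too low to test. Among the genes printed above, BNIP3 held 6 matches in its window, LDHA 5, PGK1 3 and ENO1 2. SLC16A3 and PDK1 were among the genes with no match in this window, which covers only the 250 bases before 1 RefSeq start per gene. Whether matches go with the outcome was not tested.

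The label of the knockdown was checked on CAVIN1 itself, listed under its older symbol PTRF. It measured 329.6, 347 and 330.3 FPKM in shCtrl against 134, 139 and 150.2 FPKM in shCAVIN1, which is 42.0% of control (log2 difference -1.25, SE 0.0586, limma adjusted p = 2.88e-05). Between 19649 and 20435 genes were above 0 in a library, and the FPKM sums lay between 758837 and 1043840. RN7SK, an abundant non-coding RNA, had a listed value of 0 in shCtrl 2 and at 106035 to 151555 FPKM in the other 5 libraries. The stromal markers fit the label, with 14 of 16 at a mean of 1 FPKM or more, and their summed level was 1833 to 1981 FPKM in shCtrl and 1268 to 1284 FPKM in shCAVIN1. They did not move together: 8 passed as lower and 4 as higher, from COL1A2 at 11.4% to DCN at 868% of control, the extremes named after their values were seen. Of 15 prostate epithelial markers, 3 reached 1 FPKM, KLK3, KLK2, TMPRSS2 and FOLH1 were at 0 in every library, and the summed level was 399.6 to 434 FPKM in shCtrl and 244 to 259 FPKM in shCAVIN1, most of it KRT18. The 7 endothelial markers summed to 0.475 to 0.929 FPKM in shCtrl and 1.34 to 1.57 FPKM in shCAVIN1, and the 7 immune markers to 7.43 to 8.40 FPKM and 9.84 to 10.2 FPKM. The part of these marker levels in the results was not tested, and in bulk RNA a smaller number of cells of a type cannot be told apart from less RNA per cell.

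Across the 34 tested genes, 8 were higher and 15 were lower in shCAVIN1, and 11 did not pass the test. Over all 13941 tested genes 55.5% passed, 27.3% higher and 28.2% lower, so the share of members with a higher level was near the background and the share with a lower level was above it. Without any overlap between the groups, 11 of the 34 lay above and 17 below control, against 64.6% of all tested genes without overlap in either direction. Most changes were small. Only 5 of the 34 passed the test and also changed at least 1.5-fold (SLC16A3, HK2, PDK1, CA12 and P4HA1), against 18.0% of all tested genes, and the median absolute log2 difference was 0.25 among members and 0.27 among all tested genes. The median signed difference was -0.11 for the members and -0.02 for all tested genes.

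The scaling of the libraries matters for these counts. When each library was rescaled to a common sum (TPM), which includes RN7SK, only 24.5% of all tested genes passed, 64.4% of them higher, against 49.2% of passing genes higher on the deposited scale, and the members that passed were 1 higher (SLC16A3) and 4 lower (HK2, PDK1, CA12 and P4HA1). The library sums also differed apart from RN7SK. In shCtrl 1 and shCtrl 3, RN7SK was 151555 and 150089 FPKM, while the sums were 899713 and 1043840. TPM moved the median log2 difference of all tested genes from -0.02 to 0.09, so differences on that scale are read relative to this shift. With scaling to the sum of protein-coding genes alone, an alternative chosen after seeing the data, 8 members were higher and 15 lower, but not all the same genes: GAPDH, ALDOC and PKM passed there, and ENO2, GPI and PFKL did not. The 5 genes with at least 1.5-fold changes were also the 5 that passed in the same direction under every one of the 17 settings tried. Another 13 lost their call under TPM and under no other setting, and the remaining 5 (SLC2A1, GPI, PFKL, ENO2 and BNIP3L) lost it under further settings as well.

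**Figure D1:**
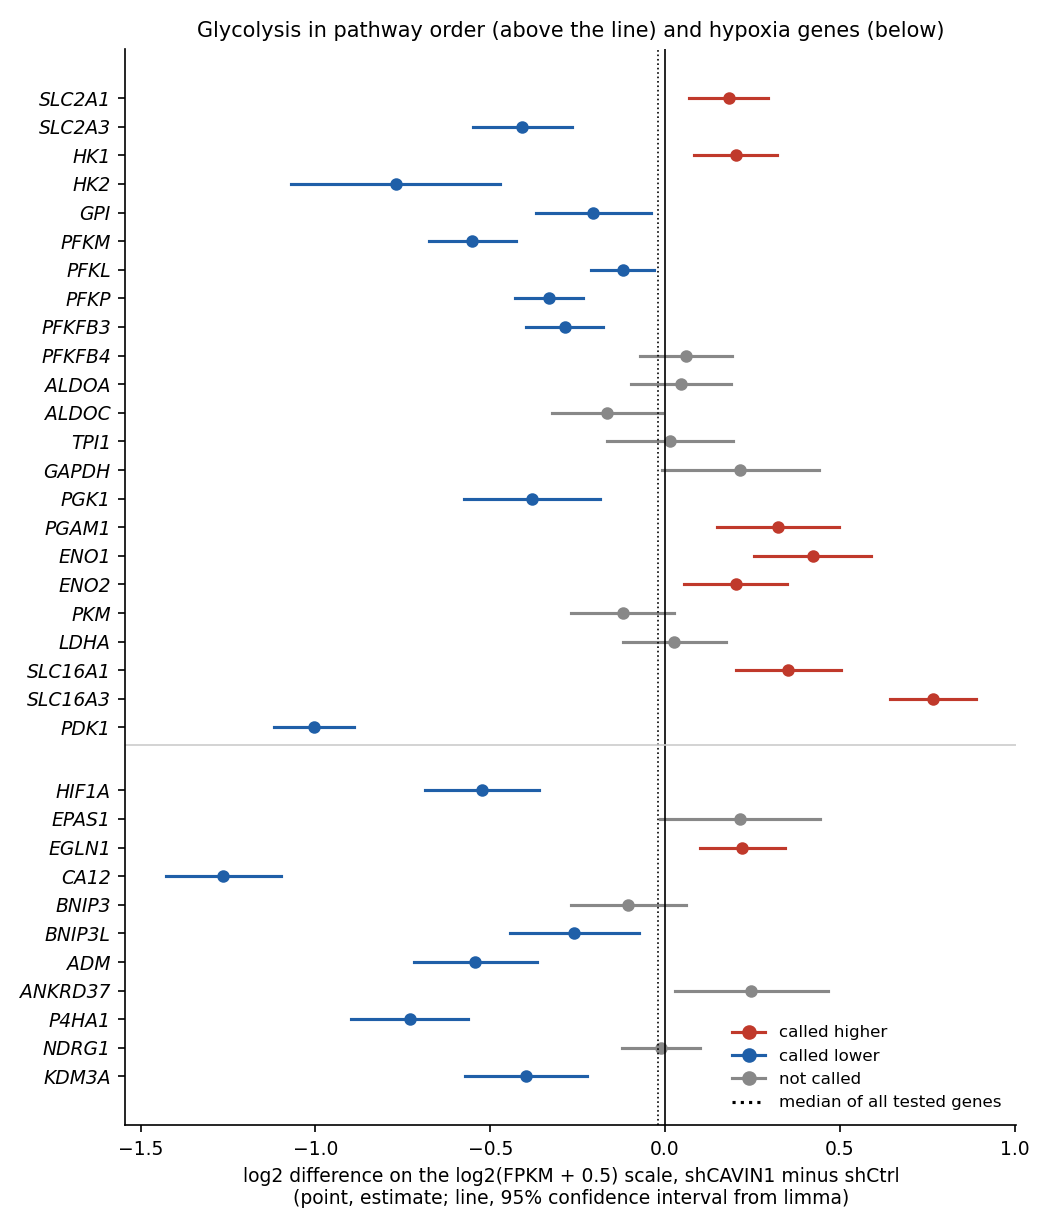
Log2 difference (shCAVIN1 minus shCtrl, on the log2(FPKM + 0.5) scale) of the 34 tested genes, glycolysis in pathway order above the grey line and hypoxia genes below it. Points are limma estimates and lines 95% confidence intervals; red genes passed the test as higher (8), blue as lower (15) and grey ones did not pass (11), and the dotted line marks the median of all tested genes (-0.02).

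Glucose enters through the facilitative carriers GLUT1 (SLC2A1) and GLUT3 (SLC2A3), which moved in opposite directions. SLC2A3 stood at 11.4, 12.7 and 12.5 FPKM in shCtrl and at 8.62, 9.20 and 9.42 FPKM in shCAVIN1. All shCAVIN1 libraries were below all shCtrl libraries, and the level fell to 74.3% of control (log2 difference -0.41, SE 0.0584, adjusted p = 0.00164). SLC2A1 stood at 21.3, 20.9 and 19.4 FPKM in shCtrl and at 23.2, 23.6 and 23.1 FPKM in shCAVIN1, a rise to 114% of control without overlap (log2 difference 0.18, SE 0.0467, adjusted p = 0.0168). Its call was lost without shCAVIN1 replicate 2 (adjusted p = 0.0677) and without shCAVIN1 replicate 3 (adjusted p = 0.0504). The summed level of both carriers was 32.7 ± 0.871 FPKM in shCtrl and 32.4 ± 0.524 FPKM in shCAVIN1 (mean ± SD, n = 3 libraries, as for all such values here), or 99.0% of control, so the total overlapped while its composition differed.

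The hexokinases showed the same arrangement. HK2, the inducible form and a textbook hypoxia target, stood at 7.79, 6.20 and 8.06 FPKM in shCtrl and at 4.71, 3.85 and 3.72 FPKM in shCAVIN1. The groups did not overlap, although shCtrl 2 lay well below the other control libraries, and the level fell to 55.7% of control (log2 difference -0.77, SE 0.123, adjusted p = 0.00261). HK1, the form found in most tissues, was higher in every shCAVIN1 library, at 22.5, 21.5 and 23.2 FPKM in shCtrl and 25.4, 25.1 and 27.1 FPKM in shCAVIN1 (115% of control, log2 difference 0.20, adjusted p = 0.0136). Summed hexokinase was 29.8 ± 1.81 FPKM in shCtrl and 29.97 ± 0.934 FPKM in shCAVIN1. HK1 and HK2 together thus gave overlapping totals, with less of HK2 in them.

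The next 2 steps passed as lower. Glucose-6-phosphate isomerase (GPI), which turns glucose 6-phosphate into fructose 6-phosphate, stood at 86.4, 76.6 and 72.9 FPKM in shCtrl and at 68.8, 68.2 and 67.0 FPKM in shCAVIN1 (86.4% of control, adjusted p = 0.0409). This call is near the threshold: it was lost when shCtrl replicate 2 was left out (adjusted p = 0.0543) or any 1 of shCAVIN1 replicates 1, 2 and 3 (adjusted p = 0.0887, 0.105 and 0.116). All 3 genes of phosphofructokinase, the committing step, passed as lower on the deposited scale, with PFKL at a log2 difference of 0.000657 under TPM.
PFKM, the muscle form, fell most among them. It stood at 29.9, 33.7 and 32.0 FPKM in shCtrl and at 21.4, 21.7 and 21.5 FPKM in shCAVIN1, 67.7% of control (log2 difference -0.55, SE 0.0515, adjusted p = 0.000299). PFKP, the platelet form, was 65.2 ± 1.28 FPKM in shCtrl and 51.7 ± 1.44 FPKM in shCAVIN1 (79.3%, log2 difference -0.33, adjusted p = 0.000826). PFKL, the liver form, was 64.6 ± 1.27 and 59.4 ± 0.817 FPKM (91.9%, log2 difference -0.12, adjusted p = 0.0313). The PFKL call was lost when shCtrl replicate 3 was left out (adjusted p = 0.0899) and when shCAVIN1 replicates 1, 2 and 3 were left out in turn (adjusted p = 0.0831, 0.117 and 0.0634). Summed phosphofructokinase stood at 162 ± 3.86 FPKM in shCtrl and 133 ± 2.198 FPKM in shCAVIN1, 82.1% of control. Exons of PFKM overlap those of SENP1 (mean 12.9 FPKM) on the opposite strand over 628 bases, and the sources used here do not state whether the counting used strand.

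The bifunctional PFKFB enzymes make and break fructose 2,6-bisphosphate, the main activator of phosphofructokinase. PFKFB3 fell from 6.95, 6.88 and 6.74 FPKM in shCtrl to 5.34, 5.52 and 5.73 FPKM in shCAVIN1, with no overlap (80.7% of control, log2 difference -0.29, SE 0.0455, adjusted p = 0.00250). PFKFB4 ranged over 4.50 to 4.98 FPKM in shCtrl and 4.83 to 5.12 FPKM in shCAVIN1, which overlap, and did not pass (log2 difference 0.06, 95% interval -0.07 to 0.19, adjusted p = 0.386).

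The middle of the pathway, where the six-carbon sugar is cut and the triose phosphates are interconverted, changed little. ALDOA, the main aldolase, stood at 675, 688 and 656 FPKM in shCtrl and 667, 709.7 and 707 FPKM in shCAVIN1 (log2 difference 0.04, 95% interval -0.10 to 0.19, adjusted p = 0.542). TPI1, triose phosphate isomerase, stood at 909.8 ± 63.6 FPKM in shCtrl and 917 ± 14.1 FPKM in shCAVIN1 (log2 difference 0.01, 95% interval -0.17 to 0.19, adjusted p = 0.887). For both genes the groups overlapped, and the sign of the difference changed under at least 1 setting. ALDOC, the minor aldolase in these cells, stood at 14.04, 16.4 and 15.2 FPKM in shCtrl and at 13.9, 12.99 and 13.5 FPKM in shCAVIN1. Its shCAVIN1 libraries lay below all control libraries, but it did not pass (log2 difference -0.17, adjusted p = 0.0695). It passed without shCtrl replicate 1 (adjusted p = 0.0237), with scaling to the sum of protein-coding genes and with the trend with transcript length removed.

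GAPDH, which oxidises glyceraldehyde 3-phosphate and often serves as a reference gene, was the most abundant of these genes and ranked 30th among all rows by its shCtrl level. It stood at 2770.4, 3072 and 2868 FPKM in shCtrl and at 3416, 3395 and 3294 FPKM in shCAVIN1. All shCAVIN1 libraries were above all shCtrl libraries, at 116% of control, but the gene did not pass (log2 difference 0.22, SE 0.0926, adjusted p = 0.0922). The difference was positive in all 17 settings and passed in 6 of them, among them the fit without shCtrl replicate 2 (adjusted p = 0.0308). GAPDH has 62 annotated pseudogenes named after it, so its FPKM may depend on how fragments with several matches were assigned.

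The payoff steps after GAPDH did not move together. PGK1, the first ATP-making enzyme, stood at 353, 428 and 378 FPKM in shCtrl and at 296, 303 and 287.5 FPKM in shCAVIN1. It fell without overlap to 76.5% of control (log2 difference -0.38, SE 0.0799, adjusted p = 0.00779), and its promoter stretch is among those printed above. PGAM1, phosphoglycerate mutase and the next enzyme, stood at 389, 455 and 407 FPKM in shCtrl and at 513, 519 and 528 FPKM in shCAVIN1. It rose to 125% of control without overlap (log2 difference 0.32, SE 0.0717, adjusted p = 0.00985). ENO1, the main enolase, stood at 879, 976 and 904 FPKM in shCtrl and at 1240.0, 1218 and 1237 FPKM in shCAVIN1. It rose to 134% of control, the largest rise among the 16 enzymes (log2 difference 0.42, SE 0.0694, adjusted p = 0.00289).
The opposite movement of these steps can also be given as a ratio within each library, which does not depend on scaling. Both ratios below set a gene that passed as higher over PGK1, which passed as lower. Their direction thus follows from those calls and is no further support. ENO1 over PGK1 was 2.49, 2.28 and 2.39 in shCtrl and 4.18, 4.02 and 4.30 in shCAVIN1. PGAM1 over PGK1 was 1.08 ± 0.0193 in shCtrl and 1.76 ± 0.0657 in shCAVIN1. Both ratios were higher in every shCAVIN1 library than in any shCtrl library. PGAM1 has 13 and ENO1 has 4 annotated pseudogenes named after them.

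ENO2, the neuronal form of enolase, was higher at 30.6, 29.8 and 31.9 FPKM in shCtrl against 37.3, 36.5 and 32.8 FPKM in shCAVIN1. The third shCAVIN1 library lay close to the highest control, and the rise to 115% (log2 difference 0.20, adjusted p = 0.0306) was lost when shCtrl replicate 1 or 2 was left out (adjusted p = 0.0707 and 0.0664) and when shCAVIN1 replicate 1 or 2 was left out (adjusted p = 0.0949 and 0.105). PKM, pyruvate kinase, which makes the second ATP and pyruvate, stood at 789.7, 858 and 835 FPKM in shCtrl and at 761, 762 and 757 FPKM in shCAVIN1. Its shCAVIN1 libraries lay below all controls at 91.9%, but it did not pass (log2 difference -0.12, adjusted p = 0.136). The PKM difference was 0.00139 under TPM and 0.0450 after quantile normalization, while the gene passed as lower with scaling to protein-coding genes (adjusted p = 0.0478) and with the trend of the values with transcript length removed from each library (adjusted p = 0.00954).

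LDHA, which reduces pyruvate to lactate, overlapped between the groups at 325, 362 and 359 FPKM in shCtrl and 363, 350.3 and 350.5 FPKM in shCAVIN1 (log2 difference 0.03, 95% interval -0.12 to 0.17, adjusted p = 0.731). It passed as higher after quantile normalization (log2 difference 0.14, adjusted p = 0.0193). Its paralog LDHB, which favours the reverse reaction and was not among the 36, fell from 404 ± 38.4 to 301 ± 4.11 FPKM (74.4%, adjusted p = 0.00449). The ratio of LDHA to LDHB was thus 0.864 ± 0.0435 in shCtrl and 1.18 ± 0.0292 in shCAVIN1.

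Lactate leaves the cell with a proton through the monocarboxylate transporters. MCT4 (SLC16A3, chr17:82228397-82261129, plus strand), known as the exporter of highly glycolytic cells, stood at 116, 124 and 116 FPKM in shCtrl and at 196, 202 and 209 FPKM in shCAVIN1. The groups were far apart, and the 1.70-fold rise was the largest among the 34 tested genes (log2 difference 0.77, SE 0.0507, adjusted p = 9.05e-05). MCT1 (SLC16A1) stood at 43.4, 50.6 and 45.5 FPKM in shCtrl and at 60.4, 58.9 and 58.9 FPKM in shCAVIN1, a rise to 128% without overlap (log2 difference 0.35, SE 0.0619, adjusted p = 0.00382). The summed level of both transporters was 165 ± 8.52 FPKM in shCtrl and 262 ± 5.88 FPKM in shCAVIN1, 158% of control. Exons of SLC16A3 overlap CSNK1D (mean 28.4 FPKM) on the opposite strand over 482 bases.

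PDK1 (chr2:172555373-172608669, plus strand) inhibits pyruvate dehydrogenase and so holds back the entry of pyruvate into the mitochondria. It stood at 15.2, 16.2 and 15.4 FPKM in shCtrl and at 7.83, 7.44 and 7.30 FPKM in shCAVIN1. The libraries of each group lay close together, and the level fell to 48.2% of control (log2 difference -1.004, SE 0.0470, adjusted p = 2.88e-05). Over the pathway, 4 of 16 enzymes rose (HK1, PGAM1, ENO1 and ENO2), 6 fell (HK2, GPI, PFKM, PFKL, PFKP and PGK1) and 6 did not pass. The 62.5% of enzymes that passed lie near the 55.5% of all tested genes. The median log2 difference of the 16 enzymes was -0.05, against 0.0690 under TPM and 0.0856 after quantile normalization. The median of all tested genes was -0.02, 0.09 and 0.01 in the same order. The transporters gave 3 rises and 1 fall, with a median of 0.27, and the flux regulators no rise and 2 falls, with a median of -0.29.

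**Figure D2:**
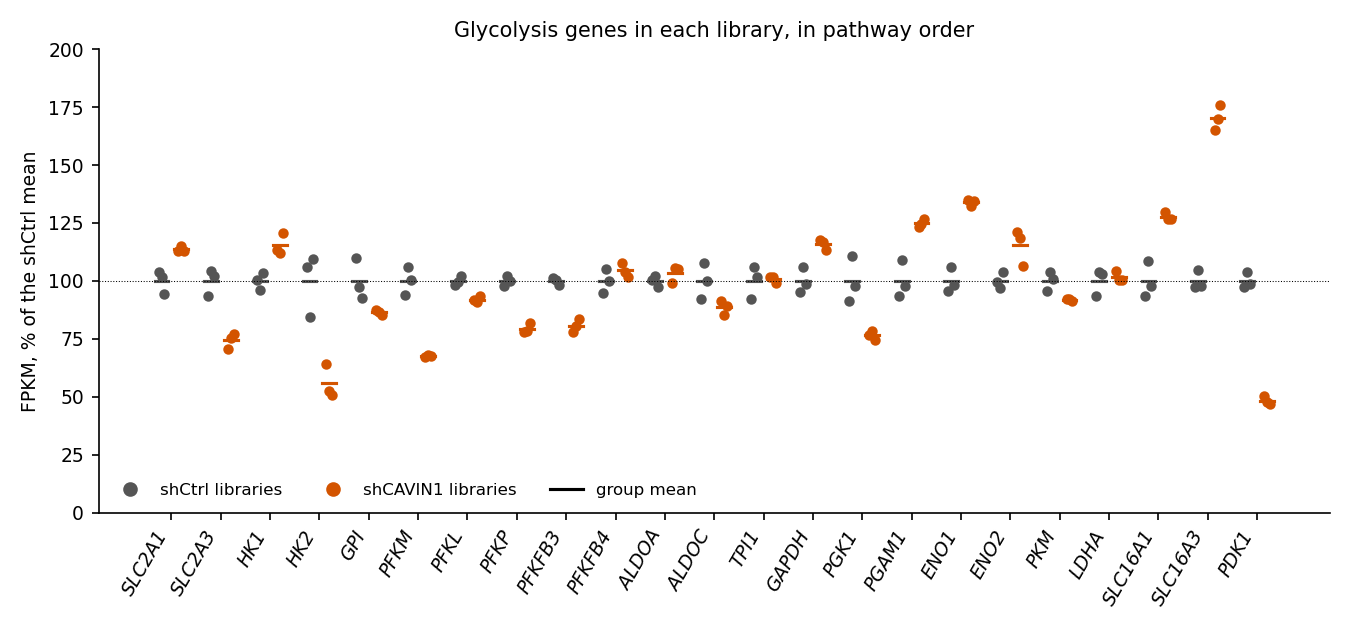
FPKM of the glycolysis genes in each library as a percentage of the shCtrl mean, in pathway order from glucose uptake to PDK1; grey points are shCtrl libraries, orange points shCAVIN1 libraries and short lines group means. SLC16A3 lies highest at a mean of 170% of control and PDK1 lowest at 48.2%, while ALDOA, TPI1 and LDHA overlap the controls.

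The summed FPKM of the 16 enzymes was 7340, 8120 and 7646 in shCtrl and 8465, 8460 and 8342 in shCAVIN1, so all shCAVIN1 libraries were above all controls (7702 ± 393 against 8422 ± 69.8). GAPDH, ENO1, TPI1, PKM and ALDOA, in this order of shCtrl level, ranked between 30 and 179 among all rows. GAPDH alone was 37.5% to 37.8% of the enzyme sum in shCtrl and 39.5% to 40.4% in shCAVIN1. As a share of the whole library, which includes RN7SK, the enzymes made up 0.816%, 1.07% and 0.732% in shCtrl and 1.01%, 1.05% and 1.02% in shCAVIN1, and these overlapped.

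The balance between paralogs of 1 step was compared as the share each takes of their summed FPKM within a library, a measure that no scaling of libraries can move. In 11 of 14 such shares the groups did not overlap, 4 with a higher and 7 with a lower share in shCAVIN1. Of all tested genes taken singly, 64.6% had no overlap, and no such rate was computed for shares of other gene pairs. The 3 phosphofructokinase shares are parts of one total and so are not independent of each other. An exact two-sided permutation test of 3 against 3 libraries cannot give a p below 0.1, and each of these 11 had that p (0.127 after Benjamini-Hochberg adjustment over the 14), so none passes. HK2 made up 25.7%, 22.4% and 25.8% of hexokinase in shCtrl and 15.7%, 13.3% and 12.1% in shCAVIN1, a difference of -10.9 percentage points. SLC2A3 made up 37.3% ± 2.16 of both glucose carriers in shCtrl and 28.0% ± 0.922 in shCAVIN1. SLC16A3 made up 71.9% ± 0.810 of both lactate carriers in shCtrl and 77.3% ± 0.794 in shCAVIN1.
Within phosphofructokinase, the 3 forms differed in how far they shifted. PFKL was 40.0% ± 0.734 of the step in shCtrl and 44.8% ± 0.253 in shCAVIN1, PFKM was 19.7% ± 0.745 and 16.2% ± 0.304, and PFKP was 40.3% ± 0.318 and 39.0% ± 0.443. LDHB was 53.7% ± 1.27 of lactate dehydrogenase in shCtrl and 45.9% ± 0.615 in shCAVIN1, so LDHA became the larger part of a smaller total. LDHA and LDHB summed to 753 ± 56.9 FPKM in shCtrl and 656 ± 8.71 FPKM in shCAVIN1, 87.1% of control. PFKFB4 was 40.9% ± 1.39 of both PFKFB forms in shCtrl and 47.3% ± 1.60 in shCAVIN1. ENO2 stayed a small part of enolase at 3.25% ± 0.249 and 2.80% ± 0.195, and the share of ALDOC in aldolase overlapped between the groups (exact permutation p = 0.2, adjusted 0.233).

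**Figure D3:**
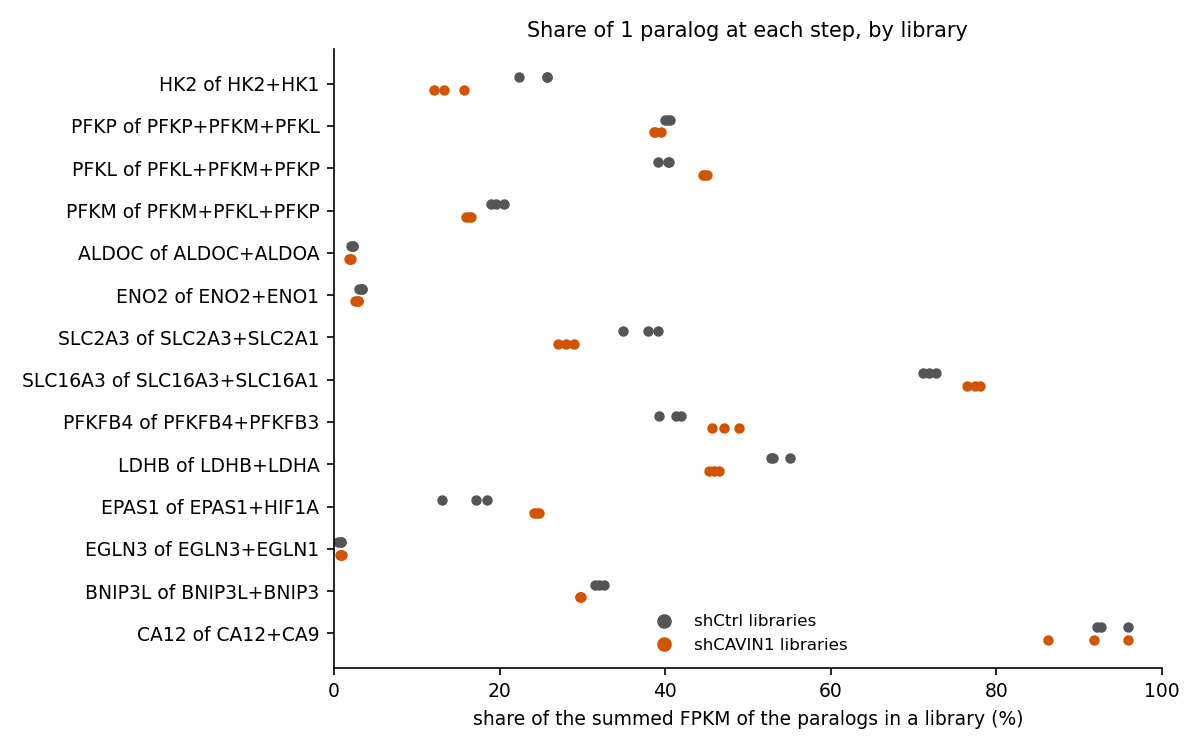
Share of the named paralog in the summed FPKM of the paralogs of its step, in percent, 1 point per library (grey shCtrl, orange shCAVIN1). The points do not overlap in 11 of the 14 rows, and ALDOC, EGLN3 and CA12 are the 3 that do. Of all tested genes taken singly, 64.6% had no overlap between the groups.

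The oxygen-sensing genes were taken apart from the glycolytic steps. HIF1A, the alpha subunit found in most cells, stood at 40.5, 47.0 and 40.5 FPKM in shCtrl and at 30.003, 29.7 and 28.7 FPKM in shCAVIN1. It fell without overlap to 69.0% of control (log2 difference -0.52, SE 0.0673, adjusted p = 0.00105). EPAS1, which encodes HIF2A, stood at 9.20, 7.02 and 8.40 FPKM in shCtrl and at 9.54, 9.64 and 9.47 FPKM in shCAVIN1. All shCAVIN1 libraries were above all controls, but the gene did not pass (log2 difference 0.21, adjusted p = 0.0963). It passed without shCtrl replicate 1 (adjusted p = 0.0314) and with the trend with transcript length removed. EPAS1 was 18.5%, 12.99% and 17.2% of the 2 alpha subunits in shCtrl and 24.1%, 24.5% and 24.8% in shCAVIN1, so HIF1A remained the larger part in every library.

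EGLN1, the main oxygen sensor among the prolyl hydroxylases, stood at 22.5, 24.4 and 21.9 FPKM in shCtrl and at 27.2, 26.3 and 26.9 FPKM in shCAVIN1. It rose without overlap to 117% of control (log2 difference 0.22, SE 0.0497, adjusted p = 0.0102). EGLN3, a hydroxylase that hypoxia itself induces, was barely detected at 0.113, 0.194 and 0.188 FPKM in shCtrl and 0.212, 0.253 and 0.224 FPKM in shCAVIN1 and was not tested.

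The other hypoxia targets, which include cell surface, mitochondrial, secreted and nuclear proteins, fell or did not pass. Of 8 tested, 5 fell (CA12, P4HA1, ADM, KDM3A and BNIP3L), none rose and 3 did not pass (BNIP3, ANKRD37 and NDRG1), with a median log2 difference of -0.33, or -0.21 under TPM. Over all tested genes 28.2% passed as lower, and their median log2 difference was -0.02, or 0.09 under TPM. CA12 (chr15:63321378-63382161, minus strand), a carbonic anhydrase of the cell surface that takes part in pH control, stood at 3.77, 3.64 and 3.36 FPKM in shCtrl and at 1.19, 1.27 and 1.15 FPKM in shCAVIN1. The groups were far apart, and the fall to 33.5% of control was the largest among the 34 tested genes (log2 difference -1.26, SE 0.0676, adjusted p = 4.68e-05). CA9, its better known hypoxia-induced relative, was at 0.298, 0.156 and 0.286 FPKM in shCtrl and at 0.0515, 0.113 and 0.183 FPKM in shCAVIN1, which overlap, and was not tested.

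P4HA1 (chr10:73007217-73096974, minus strand), a catalytic subunit of the prolyl hydroxylase that acts on collagen, stood at 83.1, 98.6 and 86.5 FPKM in shCtrl and at 54.3, 52.8 and 53.6 FPKM in shCAVIN1. It fell without overlap to 59.9% of control (log2 difference -0.73, SE 0.0687, adjusted p = 0.000309). ADM, which encodes the vasodilator peptide adrenomedullin, stood at 98.5, 117 and 101 FPKM in shCtrl and at 71.9, 71.6 and 73.0 FPKM in shCAVIN1, 68.3% of control (log2 difference -0.54, SE 0.0723, adjusted p = 0.00123). KDM3A, a histone demethylase, stood at 9.46, 8.18 and 9.12 FPKM in shCtrl and at 7.14, 6.41 and 6.38 FPKM in shCAVIN1, 74.5% of control (log2 difference -0.40, SE 0.0720, adjusted p = 0.00428). In ADM and P4HA1, as in HIF1A, the second control library was the highest of all and the shCAVIN1 libraries lay close together.

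BNIP3 and BNIP3L, paralogs that mark mitochondria for removal by autophagy, are both textbook hypoxia targets. BNIP3L stood at 58.6, 71.2 and 60.9 FPKM in shCtrl and at 52.5, 52.8 and 53.3 FPKM in shCAVIN1, 83.1% of control (log2 difference -0.26, SE 0.0759, adjusted p = 0.0275). Its call was lost when shCtrl replicate 3 was left out (adjusted p = 0.0518) and when shCAVIN1 replicates 1, 2 and 3 were left out in turn (adjusted p = 0.0778, 0.0803 and 0.0724). BNIP3 stood at 124, 147 and 133 FPKM in shCtrl and at 124, 125 and 126 FPKM in shCAVIN1 and did not pass (log2 difference -0.11, 95% interval -0.27 to 0.06, adjusted p = 0.228). It passed as lower after quantile normalization (adjusted p = 0.0278) and with the length trend removed (adjusted p = 0.0495), and its sign turned under TPM. BNIP3 has 39 annotated pseudogenes named after it, and exons of BNIP3L overlap PNMA2 (mean 11.4 FPKM) on the opposite strand over 330.0 bases.

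ANKRD37, a small ankyrin repeat gene at low level, was 0.944, 0.848 and 1.10 FPKM in shCtrl and 1.18, 1.24 and 1.28 FPKM in shCAVIN1, above all controls without passing (log2 difference 0.25, adjusted p = 0.0582). It passed without shCtrl replicate 3 (adjusted p = 0.0271) and after quantile normalization. Its exons overlap UFSP2 (mean 11.9 FPKM) on the opposite strand over 909 bases. NDRG1, a widely used hypoxia marker, overlapped at 43.1 ± 2.05 FPKM in shCtrl and 42.8 ± 0.645 FPKM in shCAVIN1 (log2 difference -0.01, 95% interval -0.12 to 0.10, adjusted p = 0.852), with a difference of 0.11 under TPM.

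**Figure D4:**
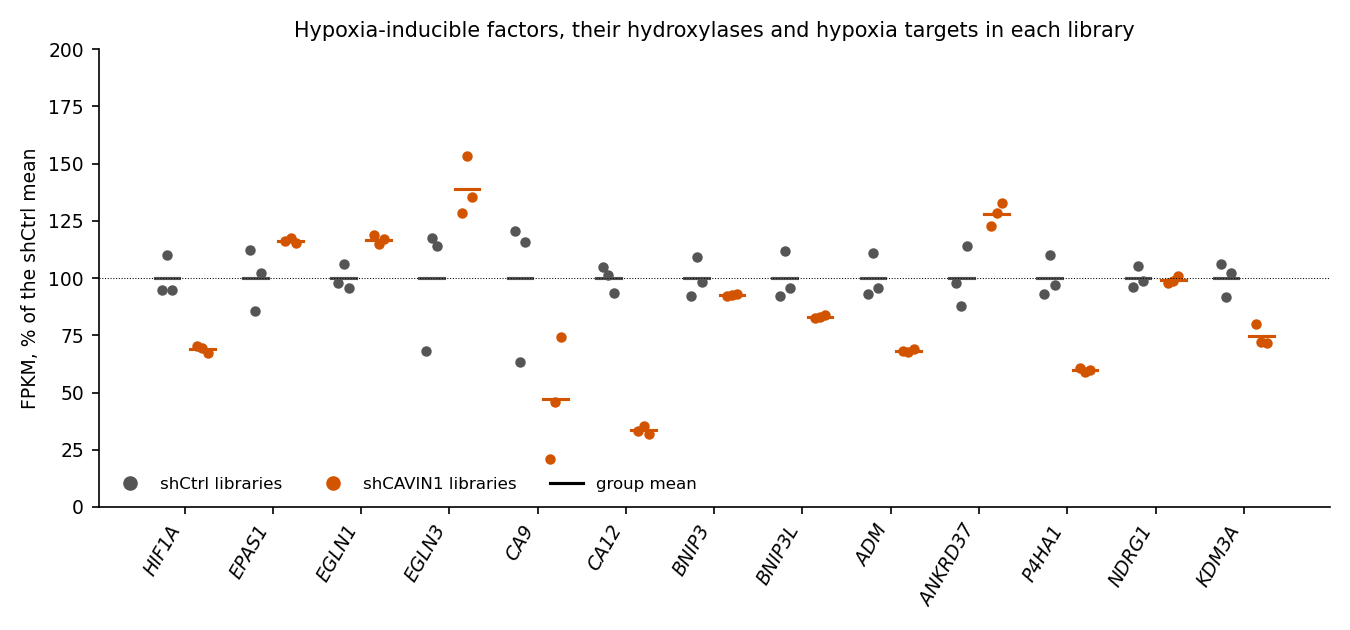
FPKM of the hypoxia-inducible factors, prolyl hydroxylases and other hypoxia targets in each library as a percentage of the shCtrl mean (grey points shCtrl, orange points shCAVIN1, short lines group means). CA12 lies lowest of the tested genes at a mean of 33.5% of control; CA9 and EGLN3 were too low to be tested, and their libraries scatter widely.

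The spread of the members was not the same in both groups. Their median coefficient of variation was 5.80% in shCtrl and 2.03% in shCAVIN1, and shCtrl 2 was the highest control library for 23 of 34 members while shCtrl 1 was the lowest for 21. The deviation of shCtrl 2 from its group mean fell with transcript length over 11966 protein-coding genes (Spearman rho -0.42), that of shCtrl 1 rose with it (0.42), and the difference between the groups went with length at -0.13, as a description across genes. With this length trend removed from each library, an alternative chosen after seeing the data, 10 members were higher and 18 lower, with 66.0% of 11966 genes passing.

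Among 25 other genes of glycolysis, 15 were tested, of which 3 were higher, 5 lower and 7 did not pass, a share passing (53.3%) near the 55.5% of all tested genes. The 4 with the lowest adjusted p were PGAM5 (34.1 ± 2.26 to 45.9 ± 1.08 FPKM, higher, adjusted p = 0.00130), which despite its name is a mitochondrial protein phosphatase, the ADP-dependent glucokinase ADPGK (33.6 ± 0.931 to 27.7 ± 0.170 FPKM, lower, adjusted p = 0.00138), PFKFB2 (3.38 ± 0.220 to 2.36 ± 0.0234 FPKM, lower, adjusted p = 0.00154) and LDHB, given above. Among 14 other sugar and lactate carriers, 10 were tested, of which 5 were higher and 2 lower, against 27.3% and 28.2% of all tested genes. SLC2A8, an intracellular glucose carrier, rose from 9.49 ± 0.491 to 14.3 ± 0.858 FPKM (adjusted p = 0.000527), and SLC16A7, the monocarboxylate transporter MCT2, rose from 2.64 ± 0.504 to 4.43 ± 0.355 FPKM (adjusted p = 0.00580). SLC37A4, which carries glucose 6-phosphate into the endoplasmic reticulum, fell from 45.3 ± 0.640 to 34.4 ± 1.19 FPKM (adjusted p = 0.000442).

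Of 17 further components of the HIF pathway, 16 were tested, with 4 higher, 5 lower and 7 that did not pass, so 56.2% passed, near the background of 55.5%. EGLN2, the third prolyl hydroxylase, fell from 31.4 ± 0.779 to 24.3 ± 0.960 FPKM (adjusted p = 0.000896), opposite to EGLN1. OS9, a lectin of protein quality control in the endoplasmic reticulum, fell from 67.6 ± 4.89 to 47.9 ± 1.96 FPKM (adjusted p = 0.00109). The ubiquitin ligases SIAH1 and SIAH2, which target prolyl hydroxylases, moved apart: SIAH2 rose from 17.3 ± 1.45 to 21.7 ± 0.820 FPKM (adjusted p = 0.00721) and SIAH1 fell from 20.5 ± 1.27 to 16.4 ± 0.961 FPKM (adjusted p = 0.00729). Of 50 further hypoxia targets, 42 were tested, with 9 higher, 17 lower and 16 that did not pass, and a median log2 difference of -0.13. The share that passed, 61.9%, is again close to 55.5%, but it was split unevenly. Of the 42 tested, 17 were lower and 9 higher, while 28.2% of all tested genes passed as lower and 27.3% as higher. STC2, a secreted glycoprotein, fell to 54.7% of control (adjusted p = 5.26e-05), RBPJ, the transcription factor of Notch signalling, to 56.6% (adjusted p = 7.62e-05) and RCOR2 to 24.7% (1.29 ± 0.0856 to 0.320 ± 0.0196 FPKM, adjusted p = 0.000142). TMEM45A rose from 4.002 ± 0.429 to 10.1 ± 0.278 FPKM, 253% of control (adjusted p = 7.48e-05). VEGFA, the vessel growth factor named here after its value was seen, rose from 16.6 ± 0.172 to 20.8 ± 0.312 FPKM (125%, adjusted p = 0.000598). LOX, P4HA2 and DDIT4, also named after their values were seen, fell to 34.6%, 60.4% and 66.6% of control. Known hypoxia targets thus lay on both sides of control, with more of the 42 lower (17) than higher (9).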

How the data were processed

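The values are FPKM, which the authors deposited as 1 table with a column for each library: fragments divided by transcript length and by the mapped total. Per the submitters' processing notes, the build was GRCh38, with CASAVA, bcl2fastq 2.17.1.14, TopHat2 (given as 2.2.5) and TopHat; per the labels' protocols, libraries came from a stranded kit for total RNA. Quantifier, annotation and strandedness of counting: not given in the sources used here. No counts were given, so absolute depth is unknown and no counting interval can be given. FPKM depends on the mapped total, so a few abundant RNAs lower all other values of a library.

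Genes with a mean FPKM of at least 0.5 over the 6 libraries were tested by limma 3.58.1 (R 4.3.3) after taking log2(FPKM + 0.5) (group as the only term, variance trend) and Benjamini-Hochberg adjustment over all of them. A gene passed at an adjusted p under 0.05; every adjusted p of a gene is limma's. Fold changes on this scale understate low genes. Percentages of control are ratios of mean FPKM. Paralog shares were compared by exact permutation tests. The script was tested on simulated data. The members, the other gene lists and the rule for named genes (all members, and the 4 genes of each other list with the lowest adjusted p) were chosen with earlier results of these data known. A gene that this rule names is not reported here. Gene positions and overlaps are from GENCODE 29 (GRCh38), promoters from RefSeq. 17 alternative settings were tried, 2 of them chosen after seeing the data.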

Additional observations from a re-analysis of the deposited data

How the results depend on the processing

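The call counts of 8 higher and 15 lower members became 1 and 4 under TPM scaling and stayed within 1.5 times under the other settings, at 6 to 9 higher and 12 to 16 lower with 1 library left out. With replicate number as a block (the replicate block), 7 were higher and 14 lower (PFKL and ENO2 no longer passed). Deviations of same-numbered libraries correlated weakly, with r of 0.0936, 0.0714 and -0.0282 for numbers 1, 2 and 3. Pairs with different numbers ranged from -0.146 to 0.0772, the latter for shCAVIN1 3 with shCtrl 2. So shCAVIN1 1 and 2 correlated best with the shCtrl library of the same number, and shCAVIN1 3 did not. The median log2 difference of the glycolytic enzymes (-0.05) was 0.0690 under TPM and 0.0856 after quantile normalization. That of the hypoxia targets (-0.33) was -0.21 under TPM. The median of all tested genes was -0.02 on the deposited scale, 0.09 under TPM and 0.01 after quantile normalization, and signs under TPM are read relative to this shift. The cause of these differences between settings was not tested. The sign changed for genes near 0: under TPM for PFKL (0.000657), PKM (0.00139), BNIP3 (0.0167) and NDRG1 (0.110), after quantile normalization for PKM (0.0450), with the length trend removed for ALDOA (-0.00837), TPI1 (-0.0359) and LDHA (-0.00566), and with 1 library left out for TPI1 (-0.0421 without shCtrl replicate 1 to 0.0578 without shCtrl replicate 2), LDHA (-0.0226 to 0.0544 likewise) and NDRG1 (0.0259 without shCtrl replicate 2 to -0.0395 without shCtrl replicate 1). The share of EGLN3 in EGLN3 and EGLN1 changed by -0.158 percentage points in place of 0.137 with 0.5 FPKM added, and that of CA12 in CA12 and CA9 by -2.28, with a range of -4.56 to 0.273 without shCAVIN1 replicate 1 and 3. CAVIN1 was lower under every setting tried. Only 3 libraries per group, 1 hairpin and an unknown depth limit the precision, most of all for the low genes CA9, EGLN3 and ANKRD37.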

Other observations

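Of 9 genes of the pentose phosphate pathway, 8 were tested, with 5 higher, 2 lower and 1 that did not pass. H6PD, the form of the first enzyme in the endoplasmic reticulum, rose from 5.63 ± 0.279 to 11.2 ± 0.651 FPKM, 199% of control (limma adjusted p = 8.75e-05). PGLS, the next enzyme, rose from 41.2 ± 1.73 to 69.8 ± 3.52 FPKM (adjusted p = 0.000121), and PGD, which makes the second NADPH, from 29.4 ± 2.33 to 42.3 ± 0.836 FPKM (adjusted p = 0.000886). RPE, an epimerase of the branch that makes no NADPH, fell from 20.5 ± 2.02 to 14.1 ± 0.218 FPKM (adjusted p = 0.00145). Over all tested genes, 27.3% passed as higher and 28.2% as lower.

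Of 15 glycogen genes, 13 were tested, with 5 higher, 4 lower and 4 that did not pass (69.2% passed, against 55.5% of all tested genes). PPP1R3C, which directs a phosphatase to glycogen, fell from 12.7 ± 1.58 to 5.62 ± 0.305 FPKM (44.2%, adjusted p = 0.000197). PHKB, a subunit of phosphorylase kinase, fell from 14.8 ± 0.676 to 8.15 ± 0.633 FPKM (adjusted p = 0.000175), and the glycogen phosphorylase PYGB from 43.2 ± 1.39 to 26.8 ± 0.334 FPKM (adjusted p = 6.21e-05). GYG1, the primer of glycogen synthesis, rose from 18.8 ± 0.873 to 28.96 ± 1.52 FPKM (adjusted p = 0.000292). Of 14 genes of pyruvate entry into mitochondria, 13 were tested, with 4 higher, 3 lower and 6 that did not pass, so 53.8% passed, near that background. PDK3, a paralog of PDK1, rose from 2.175 ± 0.0484 to 3.04 ± 0.182 FPKM (adjusted p = 0.00216). DLAT, the E2 subunit of pyruvate dehydrogenase, fell from 24.9 ± 2.13 to 18.0 ± 0.945 FPKM (adjusted p = 0.00267), pyruvate carboxylase (PC) from 3.63 ± 0.204 to 2.83 ± 0.0366 FPKM (adjusted p = 0.00476) and PDPR, which regulates the phosphatase of the complex, from 7.66 ± 1.29 to 4.93 ± 0.256 FPKM (adjusted p = 0.00675).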
